A study of Mus musculus with 14 samples.

Results

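Transcripts of 9 carriers of organic anions and organic cations, out of 23286 genes in the deposited tables, were followed in whole kidneys of 9-week-old mice. They were taken by gene symbol as a fixed set (Slc22a2, Slc22a6, Slc22a8, Slc22a12, Slc22a13, Slc22a18, Slc22a19, Slco4c1 and Abcc4). Each symbol matched 1 row in both deposited tables and all 9 passed the low-value filter. Bulk RNA-seq had been made 5 h after a kidney was injured by ischemia and reperfusion (IR) or a sham operation was done, with 3 libraries in each of 4 groups, namely VE-PTPiKO IR, VE-PTPiKO sham, Control IR and Control sham. VE-PTPiKO is the genotype name in the labels, where VE-PTP is the endothelial phosphatase encoded by Ptprb that acts on the angiopoietin receptor Tie2. The Cre driver, the sex of the bulk mice and the genotype of the Control mice beyond that name are not given in the sources used here. The comparisons ask how the injured kidney differs from the sham-operated one in each genotype, and whether that difference depends on the genotype.

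The proximal tubule clears drugs, toxins and metabolic waste by moving them through its cells from blood to urine. Slc22a6 (OAT1) and Slc22a8 (OAT3) take organic anions up from the blood side in exchange for dicarboxylates, and Slc22a2 (OCT2) takes up organic cations, driven by the membrane voltage. On the luminal side, Abcc4 (MRP4) is an ATP-driven efflux pump for organic anions and cyclic nucleotides, while Slc22a12 (URAT1) and Slc22a13 (OAT10) exchange urate and other anions for intracellular anions. Slc22a19 is a rodent organic anion transporter (OAT5), known in rat as a luminal carrier. Slco4c1 (OATP4C1) carries digoxin, thyroid hormone and uremic toxins in human and rat kidney, and Slc22a18 is an imprinted, more distant member of the SLC22 family.

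The libraries held 15427887 to 21296392 reads in genes. Ptprb, the targeted gene, lay between 75.0 and 126 CPM (counts scaled to the library total) in VE-PTPiKO IR against 112 to 159 CPM in Control IR, ranges that overlap. It lay between 117 and 162 CPM in VE-PTPiKO sham against 168 to 246 CPM in Control sham, ranges that do not overlap. Ptprb did not pass the test between genotypes, with log2 differences of -0.45 after IR and -0.43 in sham (limma adjusted p = 1.00 and 1). Its unadjusted p (limma) was under 0.05 after IR but not in sham. The nuclear RNA Malat1 took 1.96% of reads in VE-PTPiKO IR library 3, 1.15% in VE-PTPiKO sham library 2 and 1.02% in Control sham library 2, and at most 0.564% in the other 9 libraries. Where leaving out VE-PTPiKO IR library 3, or all 3 of these libraries, moved a transporter's IR estimate by over 1.5 times, the value without them is also given below. The labels do not say that the libraries of a group came from separate animals, so p-values measure the spread between these libraries, which may in part be technical. No label names a batch or a date. The code in the title of Control IR library 1 is far from the run of codes of the other bulk libraries. The labels do not say what the codes mean, and any bearing on the values was not tested. The Y chromosome genes Ddx3y and Uty had at least 42.4 CPM in each of the 12 libraries, so RNA of male tissue was present in each.

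The kidney label was checked against defining markers. All 8 proximal tubule markers (Lrp2, Slc34a1 and others) were present, with a summed level of 17322 to 21499 CPM in VE-PTPiKO IR, 19267 to 23117 CPM in VE-PTPiKO sham, 18368 to 19373 CPM in Control IR and 19530 to 24780 CPM in Control sham. None of the 8 passed the limma test for IR against sham in either genotype. The authors' deposited table, from DESeq2, has Slc27a2 lower in VE-PTPiKO (adjusted p = 0.00612) and Control kidneys (adjusted p = 0.0347), and no other of the 8. Slc27a2 averaged 3577 CPM in VE-PTPiKO IR against 4679 in VE-PTPiKO sham, and 3778 in Control IR against 4831 in Control sham. In bulk RNA, fewer cells of a type and less RNA per cell cannot be told apart.

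The 100 bases before the RefSeq start (assembly GRCm38.p6) are shown for 6 of the genes, because the results below turn on them or because they share upstream letters. Capitals mark the HNF4 core letters CAAAGT, or their reverse complement, in Slc22a12 and Slc22a19. HNF4 factors are nuclear receptors that maintain proximal tubule genes. The top pair, the neighbouring genes for OAT1 and OAT3, and the last pair, the genes that fell after IR in Control kidneys, do not have these letters.
Slc22a6, chr19:8617896-8617995, plus strand: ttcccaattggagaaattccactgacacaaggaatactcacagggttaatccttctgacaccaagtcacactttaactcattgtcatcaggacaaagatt
Slc22a8, chr19:8593082-8593181, plus strand: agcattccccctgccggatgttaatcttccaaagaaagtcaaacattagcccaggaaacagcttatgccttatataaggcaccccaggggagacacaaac
Slc22a12, chr19:6543071-6543170, minus strand: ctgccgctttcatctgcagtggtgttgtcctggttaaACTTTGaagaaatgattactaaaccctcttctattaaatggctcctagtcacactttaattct
Slc22a19, chr19:7711311-7711410, minus strand: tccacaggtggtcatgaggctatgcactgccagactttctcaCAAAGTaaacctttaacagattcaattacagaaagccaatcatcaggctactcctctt
Slc22a13, chr9:119209106-119209205, minus strand: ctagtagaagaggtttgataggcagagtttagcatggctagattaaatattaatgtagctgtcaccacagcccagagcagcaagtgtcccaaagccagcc
Slco4c1, chr1:96872172-96872271, minus strand: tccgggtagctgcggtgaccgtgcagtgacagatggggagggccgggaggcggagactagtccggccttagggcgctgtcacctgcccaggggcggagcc

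In windows from 250 bases before to 50 after the RefSeq start, searched on both strands, CAAAGT was found for Slc22a12, Slc22a19 and Abcc4 and in 14.4% of all 32851 promoters. A match describes the letters only, and a window without one says nothing about the factor. Slc22a8 and Slc22a6 are neighbours on the plus strand of chromosome 19 (mm10, 8591253 to 8611835 and 8617995 to 8628299), 6159 bases apart. The RefSeq start of Slc22a8 used above lies downstream of the start in the deposited tables. Slc22a12 (6535855 to 6543070) and Slc22a19 (7673075 to 7711310) lie on the minus strand of the same chromosome. Slc22a13 is on chromosome 9 (119192977 to 119209105), Slco4c1 on chromosome 1 (96818783 to 96872171), Slc22a2 on chromosome 17 (12584188 to 12628488), Slc22a18 on chromosome 7 (143473754 to 143499332) and Abcc4 on chromosome 14 (118482691 to 118706219).

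**Figure D1:**
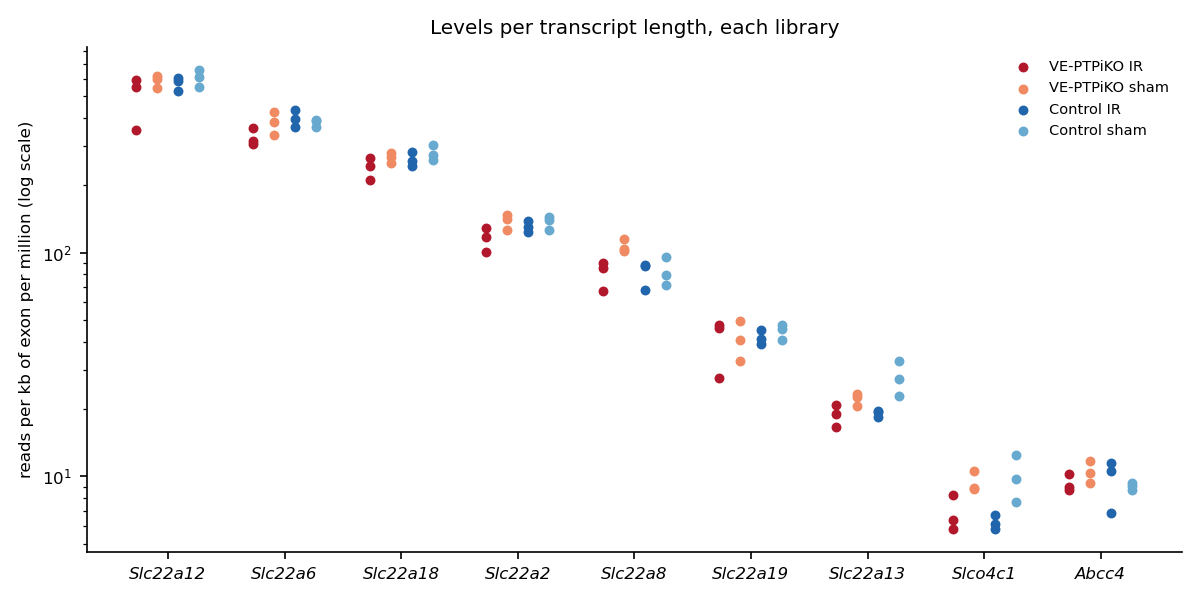
RPKM, reads scaled to exon length and library total (log scale), of the 9 transporter genes, 1 point per library, in VE-PTPiKO IR, VE-PTPiKO sham, Control IR and Control sham kidneys. Slc22a12 averaged 499 to 604 and Slco4c1 and Abcc4 6.21 to 10.5.

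Levels can be compared between genes only per length, here as RPKM. These are reads scaled to the length of all annotated GENCODE exons of a gene together, and to the library total. On this scale the urate exchanger Slc22a12 was the most abundant, with a mean of 499 ± 128 RPKM in VE-PTPiKO IR, 588 ± 37.5 RPKM in VE-PTPiKO sham, 573 ± 39.6 RPKM in Control IR and 604 ± 54.2 RPKM in Control sham (SD, n = 3 in each group). Slc22a6 followed with group means of 328 to 399 RPKM, then Slc22a18 with 241 to 279 RPKM and Slc22a2 with 116 to 138 RPKM. Slc22a8 averaged 80.9 to 107 RPKM, Slc22a19 40.4 to 44.4 RPKM and Slc22a13 18.8 to 27.6 RPKM. Slco4c1 (6.21 to 9.96 RPKM) and Abcc4 (9.01 to 10.5 RPKM) were lowest. Neighbours in this order were separated in every group except Slc22a12 and Slc22a6 in VE-PTPiKO IR, and Abcc4 and Slco4c1 in both sham groups, where the libraries overlapped. Slco4c1 ranked below Abcc4 in every group but Control sham. The order depends on the exon length used, which was 2263 bases for Slc22a12 and 3983 bases for Slc22a6. Before scaling to length, group means were 1129 to 1367 CPM for Slc22a12 and 1307 to 1588 CPM for Slc22a6. Which transcripts of a gene were expressed was not tested.

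**Figure D2:**
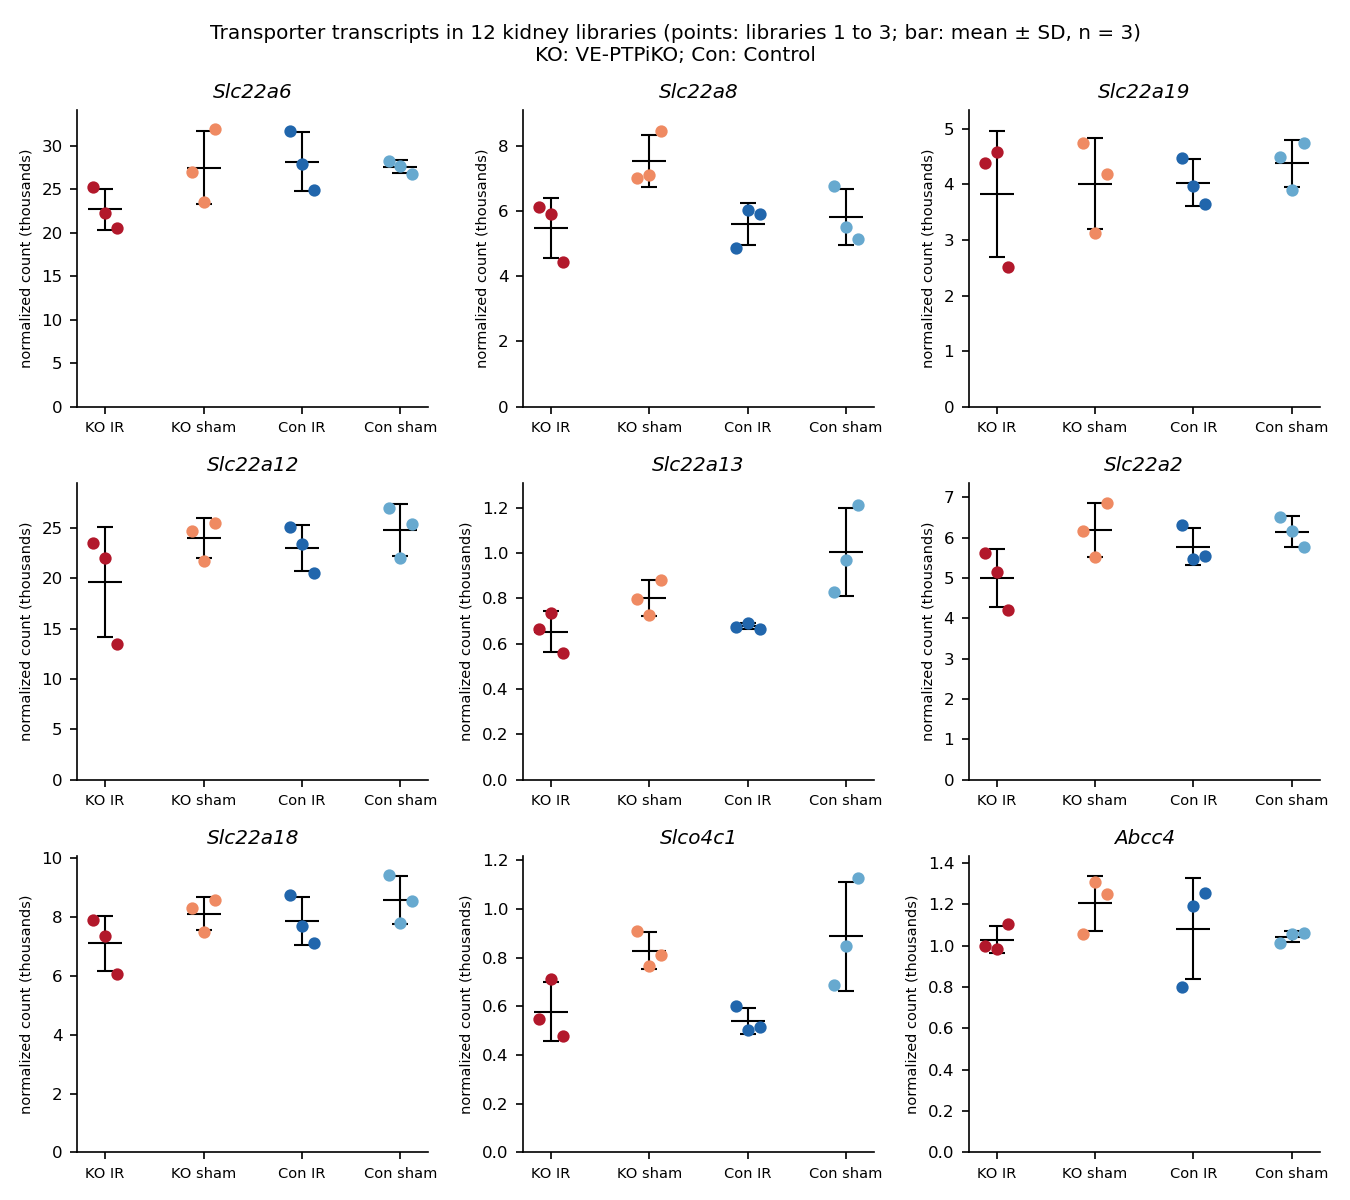
Jointly normalized counts, scaled as marked on the axes, which start at 0, of each transporter gene. Points are the libraries 1 to 3, from left to right, of VE-PTPiKO IR, VE-PTPiKO sham, Control IR and Control sham kidneys, and bars give mean ± SD (n = 3). Slco4c1 was lower after IR in both genotypes without overlap, Slc22a13 did not overlap in Control kidneys, and VE-PTPiKO IR library 3 was the lowest point in 8 of 9 panels.

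In VE-PTPiKO kidneys none of the 9 transporter transcripts passed the test for IR against sham (limma, adjusted p over all genes), where 0.793% of 16401 genes were called lower and 1.92% higher. At an unadjusted p under 0.05 there were 2 such genes, Slco4c1 and Slc22a8, beside 15.2% of all tested genes. The 2 genes whose libraries did not overlap between IR and sham were the same, beside 10.0% of all tested genes that were lower without overlap. All 9 estimates were negative, beside 51.1% of all tested genes. Their median log2 fold change was -0.30, beside -0.0091 over all tested genes. Without VE-PTPiKO IR library 3, 8 of 9 were negative and the median was -0.19. With all libraries, related lists had medians of -0.44 (urate and dicarboxylate partners), -0.26 (proximal tubule transcription factors) and -0.25 (efflux pumps). The other SLCO and other SLC22 carriers had medians of -0.043 and 0.22. A lower median was thus not particular to the 9 transporters.

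In Control kidneys 2 of the 9 transcripts, Slco4c1 and Slc22a13, fell after IR and none rose, where 4.02% of 16257 genes were called lower and 7.48% higher. These were also the 2 genes lower without overlap, beside 13.4% of all tested genes, and the 2 at an unadjusted p under 0.05 (limma), beside 24.2% of all tested genes. The median log2 fold change of the 9 genes was -0.10 beside -0.013 over all tested genes. Of the 9 estimates 7 were negative, beside 51.6% of all tested genes. Apart from Slco4c1 and Slc22a13, the log2 estimates lay between -0.12 for Slc22a18 and 0.028 for Slc22a6 or 0.029 for Abcc4. The related lists had medians of -0.30 (transcription factors), -0.17 (efflux pumps) and -0.025 (urate and dicarboxylate partners). The other SLCO and other SLC22 carriers had medians of 0.16 and 0.17.

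Slco4c1, the carrier of digoxin and uremic toxins, had 547, 709 and 474 normalized counts in VE-PTPiKO IR kidneys, against 909, 758 and 808 in VE-PTPiKO sham kidneys. It had 606, 509 and 519 normalized counts in Control IR kidneys, against 689, 854 and 1136 in Control sham kidneys. Every IR library lay below every sham library of its own genotype. Slco4c1 fell 1.61-fold in Control IR kidneys (log2 fold change -0.69 ± 0.17 SE, limma adjusted p = 0.0250). In VE-PTPiKO IR kidneys its log2 fold change was -0.53 ± 0.17 (limma adjusted p = 0.179), with a 95% interval from -0.93 to -0.14. The authors' deposited table, from DESeq2, has Slco4c1 past its own threshold in both genotypes, with log2 fold changes of -0.48 (adjusted p = 0.0315) in VE-PTPiKO and -0.68 (adjusted p = 0.000117) in Control kidneys. The authors' deposited table calls 4.88% of genes with an adjusted p lower in VE-PTPiKO kidneys and 8.6% in Control kidneys. On simulated counts with 3 libraries per group, DESeq2 made a larger share of false calls than limma in every comparison. The simulation gave every gene the same spread and did not repeat the authors' run, so it cannot judge the deposited calls. The difference between the responses of the genotypes was 0.16 ± 0.26 on the log2 scale (95% interval -0.40 to 0.71).

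Slc22a13, which exchanges nicotinate and urate, had 662, 734 and 556 normalized counts in VE-PTPiKO IR kidneys, against 797, 719 and 876 in VE-PTPiKO sham kidneys. It had 682, 697 and 669.8 normalized counts in Control IR kidneys, against 833, 974 and 1224 in Control sham kidneys. The VE-PTPiKO groups overlapped and the Control groups did not. Slc22a13 fell 1.46-fold in Control IR kidneys (log2 fold change -0.55 ± 0.14 SE, limma adjusted p = 0.0297), and its log2 fold change in VE-PTPiKO IR kidneys was -0.30 ± 0.15 (limma adjusted p = 0.413), or -0.19 without VE-PTPiKO IR library 3. The response was not shown to differ between genotypes, with a difference of 0.25 ± 0.21 on the log2 scale (95% interval -0.20 to 0.70). The coefficient of variation was 2.01% among the Control IR libraries and 19.6% among the Control sham libraries. Of the 50-base words of Slc22a13 exons, 36.0% also occur in other genes, most often the pseudogene Slc22a13b-ps. That pseudogene was assigned 2.11% to 7.20% as many reads, and counts may be split between the 2 genes.

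Both Control calls lay near the threshold and were lost in several fits that left out 1 library. Neither gene passed the threshold without Control IR library 2 (limma adjusted p = 0.117 for Slco4c1 and 0.108 for Slc22a13), without Control IR library 3 (0.0808 and 0.0907) or without Control sham library 3 (0.0788 and 0.0911). Slc22a13 also missed it without Control IR library 1 (limma adjusted p = 0.0805). The estimates without a library stayed between -0.50 and -0.65 for Slco4c1 and between -0.40 and -0.56 for Slc22a13 in those fits. For Slco4c1 the log2 fold change was -0.77 without Control IR library 1 and -0.86 without Control sham library 1.

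**Figure D3:**
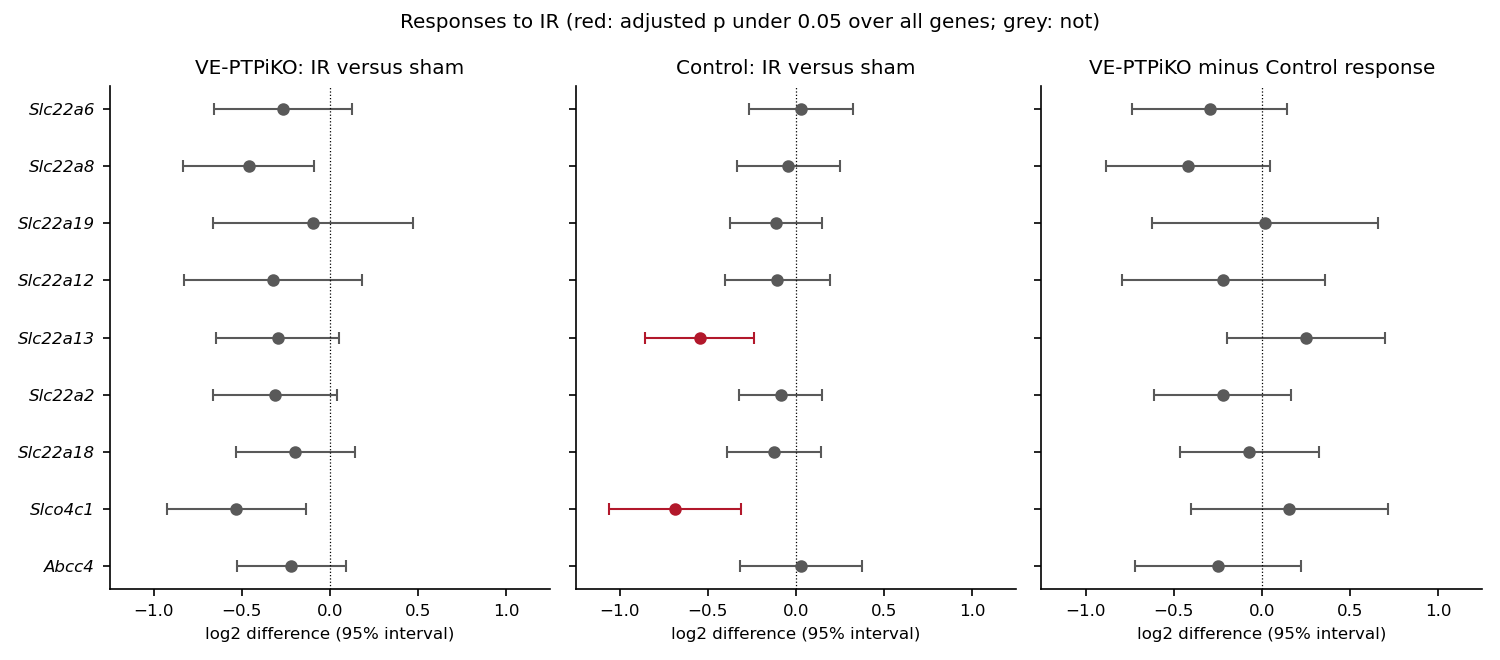
Log2 difference with 95% interval for each transporter gene, from left to right for IR against sham in VE-PTPiKO kidneys, IR against sham in Control kidneys, and the VE-PTPiKO response minus the Control response. Red marks an adjusted p under 0.05 over all genes, reached by Slc22a13 and Slco4c1 in Control kidneys.

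Slc22a8, the basolateral anion exchanger OAT3, had 6128, 5875 and 4413 normalized counts in VE-PTPiKO IR kidneys, against 7007, 7049 and 8416 in VE-PTPiKO sham kidneys. It had 4923, 6099 and 5961 normalized counts in Control IR kidneys, against 6803, 5555 and 5194 in Control sham kidneys. Only in the VE-PTPiKO comparison were the groups separate, and the difference between the genotypes was tested directly. The log2 fold change was -0.46 ± 0.16 in VE-PTPiKO kidneys (limma adjusted p = 0.219) and -0.044 ± 0.13 in Control kidneys (limma adjusted p = 0.888). The response in VE-PTPiKO minus that in Control was -0.42 ± 0.22 on the log2 scale, with a 95% interval from -0.88 to 0.049 (limma, unadjusted p = 0.0756, adjusted p = 0.999). The authors' deposited table gives Slc22a8 in VE-PTPiKO kidneys a log2 fold change of -0.42 with an adjusted p of 0.0456. Without the 3 libraries highest in Malat1 the log2 fold change in VE-PTPiKO kidneys was -0.36 (limma adjusted p = 0.137) and that in Control kidneys -0.077.

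The sham groups of the 2 genotypes did not overlap for Slc22a8. After joint normalization it had 7534 ± 806 counts in VE-PTPiKO sham kidneys and 5818 ± 852 in Control sham kidneys (SD, n = 3 each), beside 2.5% of all tested genes that were higher without overlap. The log2 difference was 0.38 ± 0.15, with an unadjusted p of 0.0278 and an adjusted p of 1 (limma), so it did not pass. After IR the 2 genotypes stood at 5496 ± 917 counts in VE-PTPiKO kidneys and 5616 ± 645 counts in Control kidneys.

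Slc22a6, the OAT1 gene next to Slc22a8, had 25184, 22156 and 20402 normalized counts in VE-PTPiKO IR kidneys, against 26909.6, 23344 and 31708 in VE-PTPiKO sham kidneys. It had 32036, 28127 and 25104 normalized counts in Control IR kidneys, against 28365, 27860 and 27002 in Control sham kidneys. All 4 groups overlapped with their partner group. The log2 fold change was -0.27 ± 0.17 in VE-PTPiKO kidneys (limma adjusted p = 0.527) and 0.028 ± 0.13 in Control kidneys (limma adjusted p = 0.931). The Slc22a8 to Slc22a6 ratio of reads averaged 0.242 ± 0.0245 in VE-PTPiKO IR, 0.276 ± 0.0227 in VE-PTPiKO sham, 0.203 ± 0.0437 in Control IR and 0.211 ± 0.0256 in Control sham (SD, n = 3). The ratio needs no normalization between libraries. Its lowest value in VE-PTPiKO sham was 0.260 and its highest in Control sham 0.240. Between IR and sham the ratio overlapped in both genotypes. It ran from 0.216 to 0.265 in VE-PTPiKO IR against 0.260 to 0.302 in VE-PTPiKO sham. In Control IR it ran from 0.154 to 0.237, against 0.192 to 0.240 in Control sham. How often ratios of other gene pairs separate the groups was not tested.

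Slc22a12, the urate exchanger, had 23466, 21921 and 13333 normalized counts in VE-PTPiKO IR kidneys, against 24630.1, 21547 and 25373 in VE-PTPiKO sham kidneys. It had 25328, 23572 and 20707 normalized counts in Control IR kidneys, against 27151, 22140 and 25582 in Control sham kidneys. The spread within VE-PTPiKO IR came from library 3, which lay far below the other 2 libraries. The log2 fold change was -0.32 ± 0.22 in VE-PTPiKO kidneys (limma adjusted p = 0.562) and -0.10 ± 0.14 in Control kidneys (limma adjusted p = 0.714). Without VE-PTPiKO IR library 3 the log2 fold change in VE-PTPiKO kidneys was -0.069 (limma adjusted p = 0.780), and without the 3 libraries highest in Malat1 it was -0.14 in VE-PTPiKO and -0.19 in Control kidneys. The opposite-strand gene Nrxn2 overlaps 30.1% of the exon bases of Slc22a12. The sources used here do not state whether counting used strand, and Nrxn2 was assigned 0.296% to 0.796% as many reads as Slc22a12.

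Slc22a19, the rodent OAT5 gene, had 4369.7, 4554 and 2499 normalized counts in VE-PTPiKO IR kidneys, against 4726, 3097 and 4158 in VE-PTPiKO sham kidneys. Its groups overlapped, and its log2 fold changes were -0.097 ± 0.25 in VE-PTPiKO and -0.12 ± 0.12 in Control kidneys (limma adjusted p = 0.906 and 0.629). The VE-PTPiKO value was 0.18 without VE-PTPiKO IR library 3, and without the 3 libraries highest in Malat1 the values were 0.0091 in VE-PTPiKO and -0.20 in Control kidneys. Its Control libraries ran from 3678 to 4523 normalized counts after IR and from 3928 to 4778 in sham.

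The organic cation carrier Slc22a2 had 4185 to 5618 normalized counts in VE-PTPiKO IR kidneys against 5485 to 6831 in VE-PTPiKO sham kidneys, and 5514 to 6371 in Control IR kidneys against 5807 to 6540.3 in Control sham kidneys. Its log2 fold changes were -0.31 ± 0.16 in VE-PTPiKO and -0.087 ± 0.11 in Control kidneys (limma adjusted p = 0.396 and 0.697), and the VE-PTPiKO value was -0.19 without VE-PTPiKO IR library 3. Slc22a18 had 6014 to 7876 normalized counts in VE-PTPiKO IR kidneys against 7413 to 8513 in VE-PTPiKO sham kidneys, and 7177 to 8837 in Control IR kidneys against 7841 to 9455 in Control sham kidneys. Its log2 fold changes were -0.20 ± 0.15 and -0.12 ± 0.12 in the same order of genotypes (limma adjusted p = 0.602 in both). For Slc22a18 the VE-PTPiKO value was -0.084 without VE-PTPiKO IR library 3, nearer 0 than the Control value, and the Control value was -0.19 without the 3 libraries highest in Malat1. Neither gene separated IR from sham in either genotype.

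Abcc4, the luminal efflux pump, was the only member that was not lowest in VE-PTPiKO IR library 3. Over the 12 libraries its Pearson r was 0.49 with Slc22a8 and between -0.47 and 0.017 with the other members. Abcc4 had 999, 980.0 and 1096 normalized counts in VE-PTPiKO IR kidneys, against 1051, 1299 and 1242 in VE-PTPiKO sham kidneys. It had 809, 1202 and 1264 normalized counts in Control IR kidneys, against 1017, 1064 and 1070.4 in Control sham kidneys. The lowest value of all, in Control IR library 1, lay in a group whose other 2 libraries were above every Control sham library. Its log2 fold changes were -0.22 ± 0.14 in VE-PTPiKO kidneys and 0.029 ± 0.16 in Control kidneys (limma adjusted p = 0.510 and 0.943).

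Between the genotypes, no transporter gene passed the test in either state or in the interaction. The share of all 16339 genes called was 0.0% after IR, 0.0% in sham and 0.0% in the interaction, so the count for the transporters does not set them apart. At an unadjusted p under 0.05 (limma) there were 709 genes after IR (4.34%), 267 in sham (1.63%) and 432 in the interaction (2.64%), of which 0, 1 and 0 were among the 9 transporters. After IR the lowest unadjusted p was that of Slc22a6, with a log2 difference of -0.31 ± 0.14 between VE-PTPiKO and Control kidneys (unadjusted p = 0.0501, limma adjusted p = 1.00). In sham, after Slc22a8, it was that of Slc22a13, with a log2 difference of -0.31 ± 0.15 (unadjusted p = 0.0546, limma adjusted p = 1). The median interaction over the 9 genes was -0.22 on the log2 scale, and without VE-PTPiKO IR library 3 it was 0.036. The sign of that median therefore rested on 1 library, and the intervals of all 9 genes included 0.

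**Figure D4:**
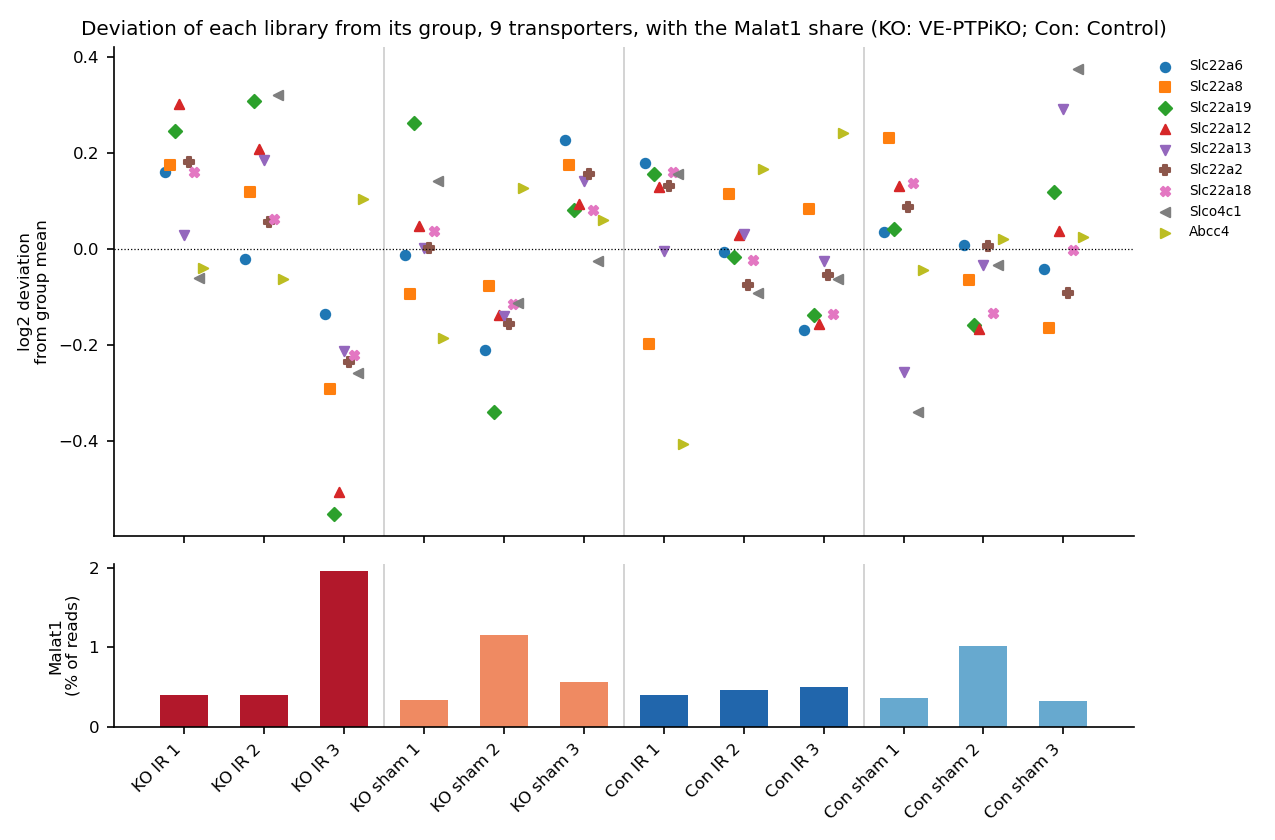
Upper panel, log2 deviation of each library from its group mean for the 9 transporter genes. Lower panel, Malat1 as a percent of reads, with VE-PTPiKO groups left of Control groups and IR left of sham within each genotype. VE-PTPiKO IR library 3, with 1.96% Malat1, has a median deviation of -0.24, and its Abcc4 point lies above 0.

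VE-PTPiKO IR library 3 was the lowest of all 12 libraries for 8 of the 9 genes, Abcc4 being the exception, and its median log2 deviation from the group mean was -0.24. VE-PTPiKO sham library 2, also high in Malat1, was the lowest of its group for 7 of 9 genes, with a median deviation of -0.14. Control sham library 2, the other library high in Malat1, was the lowest of its group for 3 of 9 genes, with a median deviation of -0.034. Over the 12 libraries, within-group deviations of the transporters and of Malat1 had a Pearson r of -0.94 for Slc22a19, -0.87 for Slc22a12 and -0.80 for Slc22a18. The r lay between -0.45 and -0.63 for Slc22a2, Slc22a6, Slc22a8, Slc22a13 and Slco4c1, and was 0.43 for Abcc4. These are descriptions over libraries that share their scaling, and the part of RNA quality or nuclear RNA in the IR differences was not tested. Without the 3 libraries highest in Malat1, the same 2 Control genes passed (limma adjusted p = 0.0444 for Slco4c1 and 0.0430 for Slc22a13) and again none in VE-PTPiKO kidneys.

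Likeness between the genes across the 12 libraries is described by Pearson r on the log2 scale, with no test, and all genes of a library share its scaling. Slc22a12 and Slc22a18 had an r of 0.94 and Slc22a2 and Slc22a18 one of 0.90. Slc22a13 and Slco4c1, the 2 genes that fell in Control IR kidneys, had an r of 0.89, and 0.87 after removing group means. The neighbours Slc22a6 and Slc22a8 had an r of 0.35. Abcc4 had an r between -0.47 and 0.49 with every other member.

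Among 10409 genes of at least 5 CPM on average, the closest to Slc22a18 were Acy3 (r = 0.98), an aminoacylase of the proximal tubule, and Ggt1 (r = 0.98), the brush border gamma-glutamyltransferase. Those closest to Slc22a19 were Ndufa10 (r = 0.97), a subunit of respiratory complex I, and Mpv17l (r = 0.97). For Slc22a12 they were Wbscr16 (r = 0.96) and Atpaf2 (r = 0.95), an assembly factor of ATP synthase, and for Slc22a2 Mgat1 (r = 0.93) and the peroxisomal protease Lonp2 (r = 0.93). For Slco4c1 they were Tapt1 (r = 0.94) and Pantr1 (r = 0.94), and for Slc22a13 the monoglyceride lipase Mgll (r = 0.92) and Nedd9 (r = 0.92). Slc22a6 was closest to Agtrap (r = 0.91) and the lipoprotein lipase gene Lpl (r = 0.89). Slc22a8 (Acss1 and Elp4, r = 0.84 and 0.83) and Abcc4 (Ablim3 and Rcsd1, r = 0.85 for both) had the least similar partners. Without the 2 libraries farthest from each member's median these r values ran from 0.58 for Abcc4 and Ablim3 to 0.96 for Slc22a18 and Acy3.

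**Figure D5:**
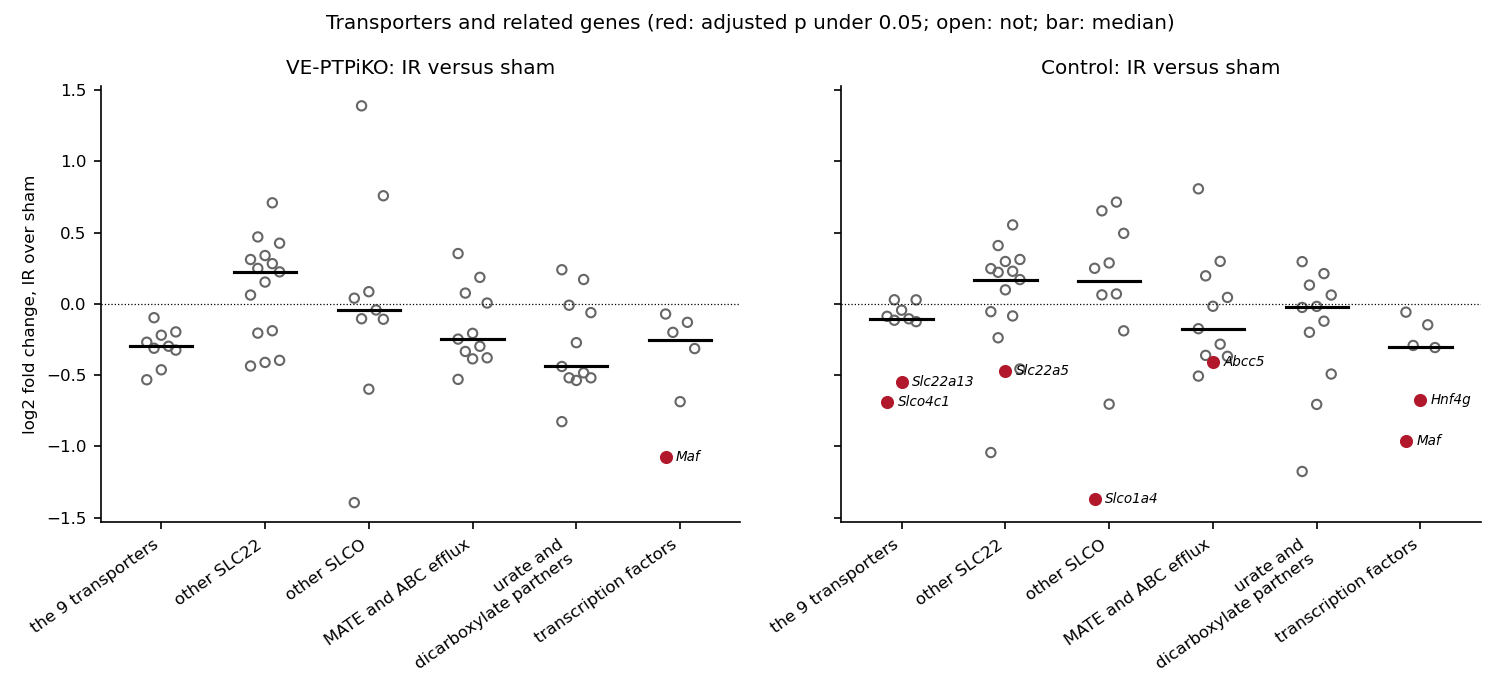
Log2 fold change, IR over sham, of the 9 transporters and of 5 lists of related genes in VE-PTPiKO kidneys (left) and Control kidneys (right). Filled red points passed an adjusted p under 0.05, open points did not, and bars are list medians, -0.30 and -0.10 for the 9 transporters.

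The related genes gave few calls with limma, and the authors' deposited table calls more of them. Of 15 other SLC22 genes tested, 0 passed in VE-PTPiKO kidneys and 1 in Control kidneys, the carnitine transporter Slc22a5, which fell to 223 ± 18.1 CPM in Control IR kidneys against 302 ± 18.3 CPM in Control sham kidneys (SD, n = 3 each, log2 fold change -0.47, limma adjusted p = 0.0225). Slc22a5 had 219 ± 6.40 CPM in VE-PTPiKO IR kidneys against 286 ± 25.2 CPM in VE-PTPiKO sham kidneys (log2 fold change -0.44, limma adjusted p = 0.145), and the authors' deposited table gives it an adjusted p of 0.00612 there. The anion carrier Slc22a7 (OAT2) had log2 fold changes of -0.40 in VE-PTPiKO and -0.24 in Control kidneys, neither of which passed. These falls were not typical of the 15 other SLC22 genes. Only 5 of the 15 estimates were negative in VE-PTPiKO and 6 in Control kidneys, with medians of 0.22 and 0.17. The authors' deposited table, from DESeq2, has Slc22a4 (adjusted p = 0.0356) and Slc22a23 (adjusted p = 0.00947) higher in Control kidneys, and neither in VE-PTPiKO kidneys. Of the other SLCO carriers, 0 of 9 tested passed in VE-PTPiKO kidneys. In Control kidneys 1 of 10 did, Slco1a4, a low transcript that fell to 2.60 ± 0.386 CPM in Control IR kidneys against 6.65 ± 0.727 CPM in Control sham kidneys (log2 fold change -1.37, limma adjusted p = 0.00224). Slco1a4 had 3.32 ± 2.12 CPM in VE-PTPiKO IR kidneys against 7.58 ± 1.30 CPM in VE-PTPiKO sham kidneys (log2 fold change -1.39, limma adjusted p = 0.130), and the authors' deposited table gives it an adjusted p of 0.0143 there. Slco1a1 had log2 fold changes of -0.043 in VE-PTPiKO and 0.070 in Control kidneys.

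Among 11 genes for efflux pumps, 0 passed in VE-PTPiKO kidneys and 1 in Control kidneys, the cyclic nucleotide pump Abcc5, which fell with a log2 fold change of -0.41 (limma adjusted p = 0.0422) and had -0.33 in VE-PTPiKO kidneys (limma adjusted p = 0.640). The luminal cation exchanger Slc47a1 (MATE1) had log2 fold changes of 0.0059 in VE-PTPiKO and -0.017 in Control kidneys, Abcc2 (MRP2) had -0.30 and -0.17, and Abcg2 (BCRP) had 0.075 and 0.045. Of 11 partners in urate and dicarboxylate handling, 0 passed with limma in either genotype. Slc2a9, the basolateral urate carrier, had log2 fold changes of -0.54 ± 0.20 in VE-PTPiKO and -0.49 ± 0.15 in Control kidneys (limma adjusted p = 0.228 and 0.0621). The authors' deposited table, from DESeq2, gives Slc2a9 an adjusted p of 0.0448 in VE-PTPiKO and 0.00906 in Control kidneys. Slc13a3, which supplies dicarboxylates for exchange, had -0.44 and 0.13 (VE-PTPiKO response minus Control response -0.57 ± 0.17, limma adjusted p = 0.999), and the scaffold gene Pdzk1 had 0.17 and 0.21. In the authors' deposited table Slc13a3 has an adjusted p of 0.0199 in VE-PTPiKO and 0.445 in Control kidneys. Of the 11 partners, only Slc13a3 had an unadjusted p under 0.05 (limma) for the difference between the responses. Over all tested genes that share was 2.64%.

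Of 6 transcription factors of the proximal tubule, 1 fell in VE-PTPiKO kidneys and 2 fell in Control kidneys, and 0 rose in either. Maf fell in both genotypes, with log2 fold changes of -1.08 in VE-PTPiKO and -0.96 in Control kidneys (limma adjusted p = 0.0147 and 0.000317). Hnf4g fell in Control kidneys with a log2 fold change of -0.67 and a limma adjusted p of 0.04999, just under the threshold, and had -0.69 in VE-PTPiKO kidneys (limma adjusted p = 0.166). In the authors' deposited table, from DESeq2, Hnf4g has an adjusted p of 0.0263 in VE-PTPiKO and 0.00678 in Control kidneys. For Slc22a5, Slco1a4, Abcc5 and Hnf4g the VE-PTPiKO response minus the Control response did not pass (limma adjusted p = 0.999 for each). Hnf4a had a log2 fold change of -0.31 in both genotypes and did not pass with limma in either. In the authors' deposited table Hnf4a has an adjusted p of 0.130 in VE-PTPiKO and 0.0363 in Control kidneys.

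Other markers moved in the same kidneys. Of 5 tubular injury genes, 3 rose in VE-PTPiKO and 5 in Control kidneys, where limma called 1.92% and 7.48% of all tested genes higher. The summed level of the 5 injury genes was 156 to 192 CPM in VE-PTPiKO IR against 30.8 to 34.8 CPM in VE-PTPiKO sham. It was 172 to 225 CPM in Control IR against 27.7 to 28.6 CPM in Control sham. Red cell genes, 4 of them tested, summed to 123 to 545 CPM in VE-PTPiKO IR against 74.5 to 141 CPM in VE-PTPiKO sham, where 0 passed, and to 318 to 586 CPM in Control IR against 59.0 to 175 CPM in Control sham, where 4 rose. Of 6 leukocyte genes, Cd68 alone rose in each genotype, and their sum was 41.5 to 51.7 CPM in VE-PTPiKO IR against 22.4 to 30.6 CPM in VE-PTPiKO sham, and 34.0 to 58.6 CPM in Control IR against 21.3 to 27.0 CPM in Control sham. Of 4 endothelial genes, Cdh5 rose in Control kidneys and 0 passed in VE-PTPiKO kidneys. At an unadjusted p under 0.05 (limma), all 5 injury and all 4 red cell genes were higher in VE-PTPiKO IR kidneys, beside 15.2% of all tested genes. The authors' deposited table, from DESeq2, has all 5 injury genes higher in VE-PTPiKO kidneys, with adjusted p of 0.0445 for Sox9 and 0.0361 for Vcam1. It also has the red cell genes Alas2 (adjusted p = 0.000154) and Hba-a1 (adjusted p = 0.0206) higher there, but not Hbb-bs or Hbb-bt. The VE-PTPiKO response minus the Control response passed for none of these injury, red cell, leukocyte or endothelial genes. It had an unadjusted p under 0.05 (limma) for 3 of the 5 injury genes, beside 2.64% of all tested genes. Marker lists for loop of Henle, distal tubule, collecting duct, podocytes, fibroblasts and mural cells, and adipocytes had 0 calls in either genotype. The part of injury, blood and leukocyte transcripts in the transporter values was not tested.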

How the data were processed

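Reads had been processed with FastQC, STAR, HTSeq and DESeq2 on mm10, per the submitters' processing notes, without versions. The authors deposited 1 table per genotype with 6 library columns of normalized signal, gene counts divided by a size factor per library, as the values show. The deposited log2 fold changes and p-values, and a Wald score not used here, are the authors' own, per the file headers. Multiplying by the size factor gave whole reads for 100.0% of values (tolerance 0.02). Of 23493 lines per table, 23286 gene identifiers were kept.

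IR was tested against sham within each table with limma 3.58.1 (R 4.3.3) with a trend on log2(value + 1), for a mean of at least 1, with Benjamini-Hochberg adjustment and a threshold of 0.05. Fold changes are on that log2(value + 1) scale. For genotype contrasts and the interaction, reads recovered from both tables were normalized jointly over 14828 genes. The tests were checked on simulated counts. Fewer of the large simulated interaction changes were called than the share first required, and that requirement was then replaced by limits on bias, sign and false calls, which limma met. Alternatives included edgeR 4.0.16 and DESeq2 1.42.0 on the recovered reads, of which DESeq2 made the larger share of false calls in the simulated counts. The genes and lists were chosen with earlier results of these data known. All 9 members are named; of other lists, the called genes of largest change and a fixed set. A few genes of these lists are not reported here and were left out of the counts. The 2 single-cell samples were not analysed here.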

Additional observations from a re-analysis of the deposited data

How the results depend on the processing

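Every transporter had at least 438 reads in each library, and 3 libraries per group limit the precision. Of 756 values for single members under another setting, 706 kept their direction and side of the threshold, 7 lost the call and 43 changed sign, none of those 43 past the threshold and each at most 0.18 in size on the log2 scale.

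In VE-PTPiKO kidneys 445 genes were called for IR against sham, and 1008 with DESeq2, 1019 in 1 model of all 12 libraries, 853 without the 3 libraries highest in Malat1, and 126 to 1925 when single libraries were left out, the highest without VE-PTPiKO IR library 3. No transporter was called there under any of these. In Control kidneys 1870 genes were called, and 862 to 2010 when single libraries were left out, with 0 to 2 transporters. The number called was 1 in place of 0 with DESeq2 after IR and with DESeq2 or without the 3 Malat1 libraries in sham, 0 to 1 in sham and 0 to 1 in the interaction when single libraries were left out. The cause was not tested. On the recovered reads edgeR called 456 genes in VE-PTPiKO and 1867 in Control kidneys for IR, with 0 and 2 transporters, and 0 in both genotype contrasts and the interaction.

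Signs that changed, as log2 values, were these. Without the 3 Malat1 libraries, Slc22a19 was 0.0091 in VE-PTPiKO kidneys for IR against sham. In the same setting VE-PTPiKO IR against Control IR gave 0.11 for Slc22a8, 0.046 for Slc22a13 and 0.15 for Slc22a19, sham gave 0.093 for Slc22a6, and the interaction gave 0.0497 for Slc22a12 and 0.0496 for Slc22a18. Slc22a2 in sham was -0.0031 with TMM and -0.0012 with edgeR. Leaving out single libraries gave -0.27 to 0.18 for Slc22a19 in VE-PTPiKO kidneys, and in Control kidneys -0.062 to 0.11 for Slc22a6, -0.13 to 0.069 for Slc22a8 and -0.091 to 0.23 for Abcc4. For VE-PTPiKO IR against Control IR it gave -0.075 to 0.21 for Slco4c1, -0.14 to 0.11 for Slc22a8, -0.15 to 0.046 for Slc22a13, -0.28 to 0.15 for Slc22a19 and -0.25 to 0.074 for Abcc4. For VE-PTPiKO sham against Control sham it gave -0.13 to 0.090 for Slc22a6, -0.13 to 0.022 for Slc22a12, -0.27 to 0.029 for Slc22a19, -0.071 to 0.086 for Slc22a2 and -0.24 to 0.12 for Slco4c1. For the interaction it gave -0.15 to 0.30 for Slc22a19, -0.031 to 0.33 for Slco4c1, -0.37 to 0.036 for Slc22a12 and -0.15 to 0.040 for Slc22a18.

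The replicate numbers were not taken as pairs, since only 8 of 18 same-numbered pairs of libraries had deviations correlated over 0.1 (range -0.51 to 0.60). A replicate block gave 604 calls in VE-PTPiKO and 1805 in Control kidneys, 0 in both genotype contrasts and 0 in the interaction, with 0 and 2 transporters called for IR.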
